A study of Mus musculus with 2 samples.

Results

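The genes described here encode the mitotic cohesin complex, its loading, release and accessory factors, and the DNA-binding protein CTCF. The 10 members, Smc1a, Smc3, Rad21, Stag1, Stag2, Nipbl, Pds5a, Pds5b, Wapl and Ctcf, were taken by symbol from the 43346 annotated genes of the deposited tables, of which 21474 were protein-coding, and all 10 were found in both libraries. The cells were granulocyte-monocyte progenitors, the marrow precursors of neutrophils and monocytes, taken as primary cells from male C57BL/6J mice of 5 to 6 weeks with no transgene, deletion or treatment named. The series holds 1 group of 2 libraries of ribosome-depleted total RNA, named as biological replicates 1 and 2, so no condition was compared and no p-value is given. Both carry the same donor record, and the SD given with each mean describes the spread of these 2 libraries, which may be partly technical.

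Cohesin is a ring that holds sister chromatids together after replication and extrudes loops of DNA in interphase. Smc1a, Smc3 and Rad21 encode the ring, and Stag1 and Stag2 encode alternative subunits that bind it, of which any one complex holds one. Nipbl encodes the loader, Wapl the release factor, and Pds5a and Pds5b a pair of related regulators of residence on DNA. Ctcf encodes the zinc finger protein at which loop extrusion by cohesin commonly stops. In human myeloid neoplasms STAG2, RAD21, SMC1A and SMC3 are recurrently mutated.

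Sequences from the Stag paralogues and from 2 junctions of Pds5b carry the transcript results given further on. All were read from GENCODE M21 transcripts on GRCm38, 5′ to 3′, on the plus strand. The first pair are the alternative coding exons of 111 nt, or 37 codons, that each Stag gene includes or skips, and capitals mark the 60 positions at which the exons differ in an ungapped comparison. The Stag1 exon lies at chr9:100953486-100953596 and the Stag2 exon at chrX:42266366-42266476, and each is coding exon 30 of 33 in the transcript that includes it.
Stag1 exon: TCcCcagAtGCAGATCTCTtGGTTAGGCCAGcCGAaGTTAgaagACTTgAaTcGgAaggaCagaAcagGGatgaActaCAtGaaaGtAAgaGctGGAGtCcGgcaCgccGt
Stag2 exon: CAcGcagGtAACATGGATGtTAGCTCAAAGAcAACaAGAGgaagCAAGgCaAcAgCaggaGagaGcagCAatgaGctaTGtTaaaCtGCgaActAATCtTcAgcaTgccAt
The exons were identical at 51 of 111 positions, or 45.9%. Over the aligned coding sequences of Stag1-206 and Stag2-203 the identity in a gapped alignment was 74.7%, a measure that is not comparable with the ungapped one. The longest run of bases shared by those coding sequences was 23 nt.

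The next sequence is the coding part of Stag2-204, the short transcript to which most of the Stag2 TPM was assigned, with its start codon in capitals. It lies on exons between 42201951 and 42206124 of chromosome X.
Stag2-204 coding part: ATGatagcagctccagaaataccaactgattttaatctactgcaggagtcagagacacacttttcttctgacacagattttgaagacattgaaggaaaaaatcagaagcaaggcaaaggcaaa
This transcript is 294 nt long in 3 exons, and 219 nt of it are also part of the full-length Stag2-201. Its own first exon has 75 nt, and 123 nt are coding. The annotation marks the end of its mRNA and of its coding sequence as not found, and tags it as lacking support from the organism's own transcripts.

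The last set are the splice junctions at which Pds5b-202 differs from Pds5b-201 within the coding sequence, with the bases that Pds5b-201 lacks in capitals and 15 nt on either side. Pds5b-202 holds 6 further bases at chr5:150796671-150796676 and 3 further bases at chr5:150801119-150801121, both multiples of a codon.
Pds5b-202 junction 1: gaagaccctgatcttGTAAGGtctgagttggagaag
Pds5b-201 junction 1: gaagaccctgatctttctgagttggagaag
Pds5b-202 junction 2: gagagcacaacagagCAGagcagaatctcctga
Pds5b-201 junction 2: gagagcacaacagagagcagaatctcctga

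Replicate 1 held 49473848 and replicate 2 held 44260902 expected counts, which are read counts with shared reads split by an estimator. Counts differed between the libraries beyond counting noise, with a chi-square of 134 per degree of freedom over 12855 genes, so they are not 1 library deposited again. This does not show separate animals, since mean fragment length (178 and 214 nt) also differed between the libraries. TPM is a level per transcript length, scaled to a total of 1000000 over every RNA in a library. Nuclear protein-coding genes held 19.07% of it in replicate 1 and 22.84% in replicate 2, and rescaled TPM gives levels within those genes alone. The progenitor markers Kit, Cd34 and Fcgr3 were all above 20 TPM in both libraries, and Mpo, the granule peroxidase of this lineage, was at 2420 TPM ± 187 (SD, n = 2). The other myeloid identity genes listed were Elane, at 763 TPM ± 58.7, and Csf1r, at 6.33 and 8.81 TPM. Of 13 markers of erythroid, megakaryocyte, B, T and stromal cells or of populations that textbook gates exclude, 12 were below 1 TPM in both libraries and 5 of them had 0 counts. The exception was the megakaryocyte integrin gene Itga2b, at 2.91 and 3.38 TPM. The summed level of those lists was at most 0.470 TPM for erythroid and 4.24 TPM for megakaryocyte genes. The mature neutrophil genes Ltf and Camp were at 17.1 TPM ± 3.10 and 39.5 TPM ± 9.81, and their part in the levels below was not tested.

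All 10 genes were at or above 1 TPM in both libraries, beside 40.9% of protein-coding genes and 22.0% of all annotated genes. At 10 TPM the count was 8 of 10, beside 14.3% of protein-coding genes, and the exceptions, Nipbl and Pds5b, were below 10 TPM in replicate 1 only. In RNA from a pool of cells, expression in fewer cells and less RNA per cell cannot be told apart. Their median was 22.0 TPM in replicate 1 and 23.4 TPM in replicate 2. On log2(TPM + 1), the median over the 10 was 4.56 ± 0.06 (SD, n = 2), where that over the 11650 protein-coding genes reaching 0.1 TPM in either library was 2.44 ± 0.13. Among those genes the 10 lay between the percentile of 68.0 for Pds5b and that of 97.5 for Stag2, as means of the libraries. Each gene had at least 6290 counts per library.

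Among the ring subunits, Smc1a, which encodes an SMC arm of the ring, was at 48.3 (replicate 1) and 63.9 TPM (replicate 2), a mean of 56.1 ± 11.0 (SD, n = 2). Smc3, its partner arm, was at 26.6 and 34.2 TPM, a mean of 30.4 ± 5.37. Both were higher in replicate 2, and the lower Smc1a value lay above the higher Smc3 value. Within a library Smc3 stood at 0.551 and 0.536 times Smc1a, a log2 ratio of -0.88 ± 0.03. Rad21, the kleisin that closes the ring, was at 21.7 and 22.9 TPM, a mean of 22.3 ± 0.849, and its ratio to the mean of both SMC genes was 0.580 and 0.467. On rescaled TPM, Rad21 was the lower in replicate 2, at 114 and 100.3, so the small SD of its TPM includes the shift in the protein-coding share. The coding sequences of Smc1a and Smc3 have similar lengths, 1233 and 1217 codons, and that of Rad21 has 635. On mm10, Smc1a lies on the plus strand of chromosome X at 152016428 to 152062694 and Smc3 on that of chromosome 19 at 53600398 to 53645833. Rad21 lies on the minus strand of chromosome 15 at 51962240 to 51991747.

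By mean TPM, Stag2 was the highest of the 10 genes and Stag1 the seventh. Stag2 was at 91.2 (replicate 1) and 127 TPM (replicate 2), a mean of 109 ± 25.5 (SD, n = 2), and Stag1 was at 19.5 and 22.4 TPM, a mean of 20.95 ± 2.09. The ranges did not overlap, and Stag2 was 4.69 times Stag1 in replicate 1 and 5.67 times in replicate 2. Counts gave a smaller ratio. Stag2 had 29034 and 31791 counts and Stag1 10600 and 10417, a ratio of 2.74 and 3.05 between genes whose full-length transcripts are of similar length, 5825 nt for Stag2-201 and 6186 nt for Stag1-206. Stag2 spans 42149317 to 42277185 of chromosome X and Stag1 100597798 to 100959375 of chromosome 9.

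Most of the Stag2 TPM lay in Stag2-204, whose sequence is given above. This 294-nt transcript was assigned 60.8% of the Stag2 TPM in replicate 1 and 60.7% in replicate 2, at 55.5 and 77.3 TPM, with deposited credibility intervals of 51.2 to 58.7 and 70.8 to 82.2 TPM. By counts it held 952 of 29034 and 770 of 31791, a share of 2.85% ± 0.607 (SD, n = 2). The length over which fragments could start, the effective length that divides each count, was 119 and 89.2 nt for Stag2-204 and 5648 and 5612 nt for Stag2-201. Stag2-201 held 82.7% and 77.0% of the counts but 32.3% and 30.7% of the TPM. Summed over transcripts of at least 2000 nt, a limit chosen after the values were seen, Stag2 was at 33.95 and 48.5 TPM and Stag1 at 11.8 and 15.9 TPM. The ratio was then 2.88 and 3.04, close to that of the counts, and Smc1a stood above Stag2 in each library with ranges that overlapped. The direction of Stag2 over Stag1 was the same on each of these scales.

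**Figure D1:**
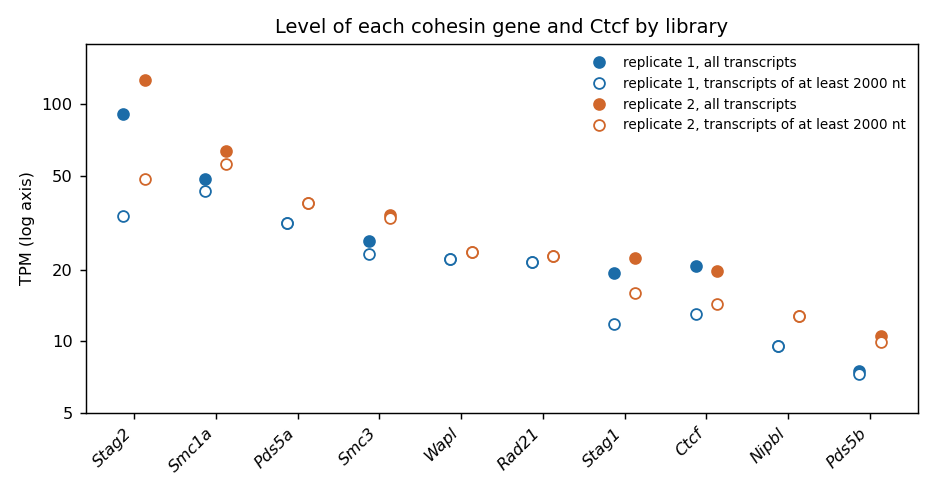
TPM of each gene (log axis) in replicate 1 (blue) and replicate 2 (orange), over all transcripts (filled) or over transcripts of at least 2000 nt (open). Filled and open points coincide for Rad21, Nipbl and Pds5a, while the Stag2 points move from 91.2 and 127 TPM to 33.95 and 48.5 TPM.

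Such a pattern was uncommon among comparable genes. Of 6594 protein-coding genes at or above 1 TPM in both libraries with a transcript of at least 2000 nt, 448 (6.79%) had over 50% of their TPM in transcripts under 1000 nt in both libraries. In 31 of them (0.470%) those transcripts also held under 10% of the counts in both, and Stag2 was the only 1 of the 10 genes among the 31. These limits describe the pattern already seen in Stag2, so its place among the 31 was fixed in advance. Stag1 and Ctcf followed at a distance, with 23.3% ± 1.48 and 21.9% ± 7.34 (SD, n = 2) of TPM in transcripts under 1000 nt against 2.58% and 5.02% of counts. The small SD for Stag1 is that of a sum whose parts differed between the libraries. Stag1-207, of 583 nt, held 18.4% of the Stag1 TPM in replicate 1 and 4.68% in replicate 2, and Stag1-209, of 692 nt, held 3.37% and 12.85%. Rad21, Nipbl and Pds5a each have a single transcript in the deposited annotation.

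**Figure D2:**
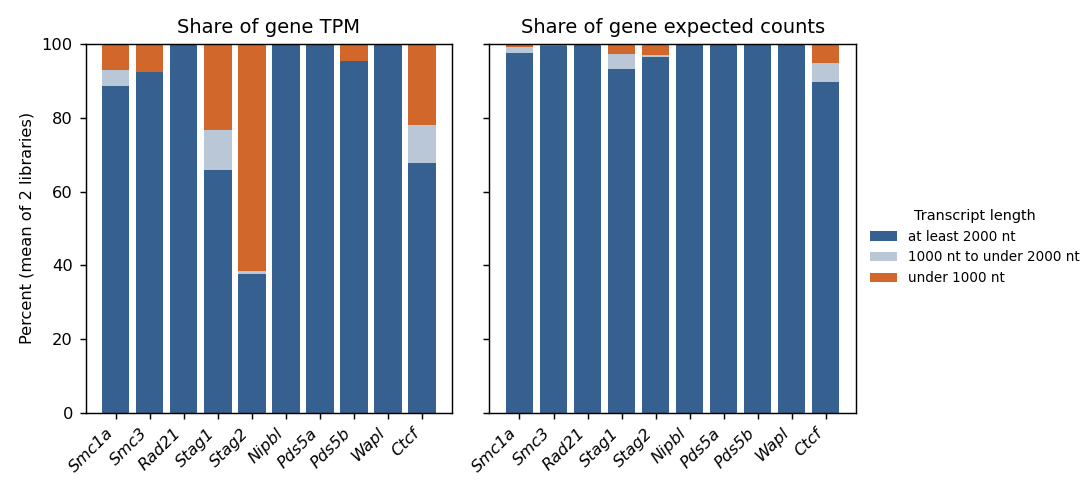
Percent of each gene's TPM (left) and expected counts (right) in transcripts of at least 2000 nt (dark blue), 1000 nt to under 2000 nt (grey) and under 1000 nt (orange), as means of the 2 libraries. Transcripts under 1000 nt make up 61.6% of the Stag2 TPM and 3.05% of its counts.

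The alternative 111-nt exons were used in opposite proportions by the paralogues. Among transcripts that span the position, those with the exon held 99.0% of the Stag1 TPM in replicate 1 and 87.1% in replicate 2, a mean of 93.0% ± 8.44 (SD, n = 2). In Stag2 they held 13.1% and 19.5%, a mean of 16.3% ± 4.51. The ranges were far apart, and the means by counts were 93.2% and 17.1%. In Stag1 the skipping transcript is Stag1-201, which had 93.9 counts in replicate 1 and 1201 in replicate 2, so the Stag1 share was the less steady of the pair. In Stag2 the including transcript is Stag2-203, with 3841 and 6290 counts beside 24011 and 24480 for Stag2-201. Stag1-201 and Stag2-203, on which both shares rest, carry the same tag for missing support in the organism as Stag2-204. Stag1-206 and Stag1-201, like Stag2-203 and Stag2-201, also differ in their first exons, so these shares rest on the estimator's split over whole transcripts and not on junction reads, which were not used here.

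**Figure D3:**
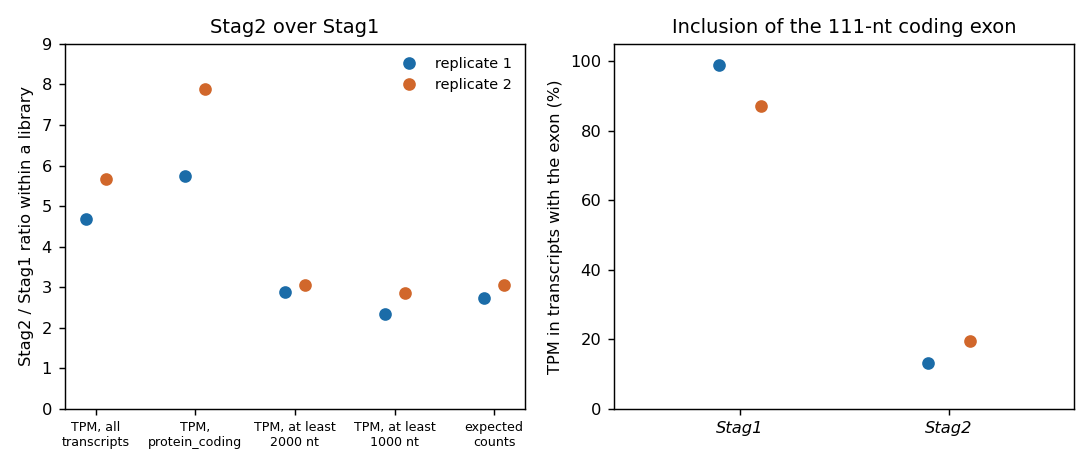
Left, ratio of Stag2 to Stag1 within replicate 1 (blue) and replicate 2 (orange) by scale, from 2.34 on TPM of transcripts of at least 1000 nt to 7.88 on TPM of protein_coding transcripts. Right, percent of TPM in transcripts that include the 111-nt exon, at 99.0 and 87.1 for Stag1 and 13.1 and 19.5 for Stag2.

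The loader gene Nipbl was among the lowest of the 10, at 9.55 (replicate 1) and 12.8 TPM (replicate 2), a mean of 11.2 ± 2.27 (SD, n = 2). Its counts were 11891 and 12266, above those of Stag1 and Rad21, over the longest coding sequence of the set, 2798 codons. Mau2, which encodes the partner of Nipbl in the loader, was lower still at 3.66 and 4.19 TPM, so that Nipbl stood 2.61 and 3.05 times above it. Wapl, the release factor, was at 22.2 and 23.9 TPM, a mean of 23.0 ± 1.17. Nipbl stood at 0.430 and 0.535 times Wapl, a log2 ratio of -1.06 ± 0.22 with no overlap of the ranges. Nipbl lies on the minus strand of chromosome 15 at 8290617 to 8444463, and Wapl on the plus strand of chromosome 14 at 34673928 to 34747983.

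The Wapl TPM was spread over 3 transcripts of at least 3891 nt in proportions that differed between the libraries. Wapl-201 held 51.8% in replicate 1 and 74.5% in replicate 2, Wapl-202 held 28.1% and 16.8%, and Wapl-205 held 20.1% and 8.28%. The deposited length of Wapl-202, 3891 nt, differs from the 4185 nt of the later annotation used for names. All are annotated as protein-coding.

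Pds5a and Pds5b encode paralogues whose aligned coding sequences were 74.8% identical, with a longest shared run of 23 nt. Pds5a was at 31.6 (replicate 1) and 38.6 TPM (replicate 2), a mean of 35.1 ± 4.94 (SD, n = 2), and Pds5b at 7.52 and 10.6 TPM, a mean of 9.06 ± 2.17. By mean TPM Pds5a was rank 3 of the 10 and Pds5b last, and the ratio within a library was 4.20 and 3.64. Unlike that of Stag2 over Stag1, this ratio changed little over transcripts of at least 2000 nt, at 4.34 and 3.87. By counts it was 2.42 and 2.33, with a Pds5b-201 of 7417 nt beside a Pds5a-201 of 4146 nt. Within Pds5b, the transcript without the 9 bases shown above, Pds5b-201, held 68.5% and 60.1% of TPM, and Pds5b-202, with them, 25.8% and 19.9%. Pds5b-201 and Pds5b-202 also differ slightly at both ends. Another coding transcript, Pds5b-203 of 2900 nt, held 2.38% of TPM in replicate 1 and 13.46% in replicate 2, from 70.2 and 428 counts. Both genes lie on chromosome 5, Pds5a on the minus strand at 65605721 to 65698273 and Pds5b on the plus strand at 150673739 to 150810690.

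Ctcf was at 20.9 (replicate 1) and 19.8 TPM (replicate 2), a mean of 20.3 ± 0.778 (SD, n = 2), and was the only one of the 10 with a lower deposited TPM in replicate 2. On rescaled TPM it was at 109 and 86.6, and Wapl, Rad21 and Stag1 were also lower in replicate 2, so the small SD of the Ctcf TPM includes the shift in the protein-coding share. Its full-length coding transcript Ctcf-201, with 736 codons, held 62.3% and 72.9% of TPM, or 13.0 and 14.4 TPM. Ctcf-206, an 851-nt transcript with a retained intron, held 20.1% and 16.7%, and Ctcf-204, a 1554-nt transcript annotated as noncoding, held 10.6% and 10.4%. By counts Ctcf-201 held 88.0% and 91.3%. Set against Rad21, Ctcf stood at 0.961 and 0.863 on gene TPM but at 0.599 and 0.629 over transcripts of at least 2000 nt. Ctcf lies on the plus strand of chromosome 8 at 105636568 to 105682922. An antisense noncoding gene, Gm5914, overlaps Ctcf and had 120 and 121 counts. No source used here says whether strand was used in counting.

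The order of the 10 by TPM was the same in both libraries except that Ctcf stood above Stag1 in replicate 1 and below it in replicate 2. From the top it ran Stag2, Smc1a, Pds5a, Smc3, Wapl, Rad21, Stag1, Ctcf, Nipbl and Pds5b by mean. Neighbours whose ranges did not overlap were Stag2 and Smc1a, Smc1a and Pds5a, Smc3 and Wapl, and Ctcf and Nipbl. The other neighbours overlapped in TPM. Of these, Pds5a and Smc3, and Nipbl and Pds5b, kept their order in both libraries and did not overlap on rescaled TPM, which removes the shift shared by all protein-coding genes of a library. Rescaled, Pds5a was at 166 and 169 beside 139.6 and 149.8 for Smc3, and Nipbl at 50.1 and 55.9 beside 39.4 and 46.4 for Pds5b. Wapl, Rad21, Stag1 and Ctcf overlapped as neighbours on both scales. Over transcripts of at least 2000 nt the order from the top was Smc1a, Stag2, Pds5a, Smc3, Wapl and Rad21 in both libraries, although the ranges of neighbours among them overlapped between the libraries. On that scale Rad21 stood above Stag1 without overlap, at 21.7 and 22.9 beside 11.8 and 15.9 TPM, while Stag1 and Ctcf still overlapped.

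Related complexes were set beside the 10 as lists, on log2(TPM + 1). Of 4 genes of meiotic cohesin, Smc1b and Rad21l had 0 counts in both libraries, and the meiotic kleisin gene Rec8 had 0 and 4. The limit set by a count of 0 is 3 counts, or 0.0606 and 0.0678 CPM, counts per 1000000 of a library, in these libraries, for counting error only. Stag3, the meiotic paralogue of Stag1 and Stag2, had 321 and 325 counts and 3.42 and 1.78 TPM, of which transcripts of at least 2000 nt held 0.19 and 0.50 TPM. The meiotic list had a median of 0 (replicate 1) and 0.025 TPM (replicate 2). The difference of medians from the 10, 4.55 ± 0.04 (SD, n = 2), is thus set by the level of the 10 and the pseudocount, and was 7.68 with a pseudocount of 0.1 and 2.75 without genes below 0.1 TPM in both libraries.

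Condensin, the SMC complex that compacts mitotic chromosomes, was at a similar level, with 8 of 8 genes at or above 1 TPM in both libraries and a difference of medians of 0.13 ± 0.07 in favour of the 10. Smc4, a condensin arm, was at 124 and 166 TPM and its partner Smc2 at 38.5 and 39.1 TPM. The Smc5/6 complex, which acts in DNA repair, also had 8 of 8 genes at that level, with Smc6 at 19.5 TPM ± 4.57 (SD, n = 2), and its median was lower than that of the 10 by 1.36 ± 0.15.

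Regulators of cohesin, a list that includes Mau2, were all detected, with 12 of 12 at or above 1 TPM in both libraries. Their median was lower than that of the 10 by 1.45 ± 0.11. The mitotic kinase gene Aurkb led at 24.0 and 24.1 TPM. The securin gene Pttg1 was at 13.2 TPM ± 2.38 (SD, n = 2), and the gene of separase, Espl1, which cuts Rad21 at anaphase, at 2.61 TPM ± 0.283. The acetyltransferase genes Esco1 and Esco2, whose products modify the Smc3 protein, were at 7.74 TPM ± 1.29 and 11.6 TPM ± 3.53, and the deacetylase gene Hdac8 was at 3.64 TPM ± 0.686. Of 8 genes of other architectural factors, 6 reached 1 TPM in both libraries. Ctcfl, the germline paralogue of Ctcf, had 0 counts in both. Yy1, which encodes a zinc finger factor found at loops between enhancers and promoters, was at 14.5 and 17.5 TPM, below Ctcf in each library. Over transcripts of at least 2000 nt it stood above Ctcf, at 13.6 and 17.4 TPM.

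**Figure D4:**
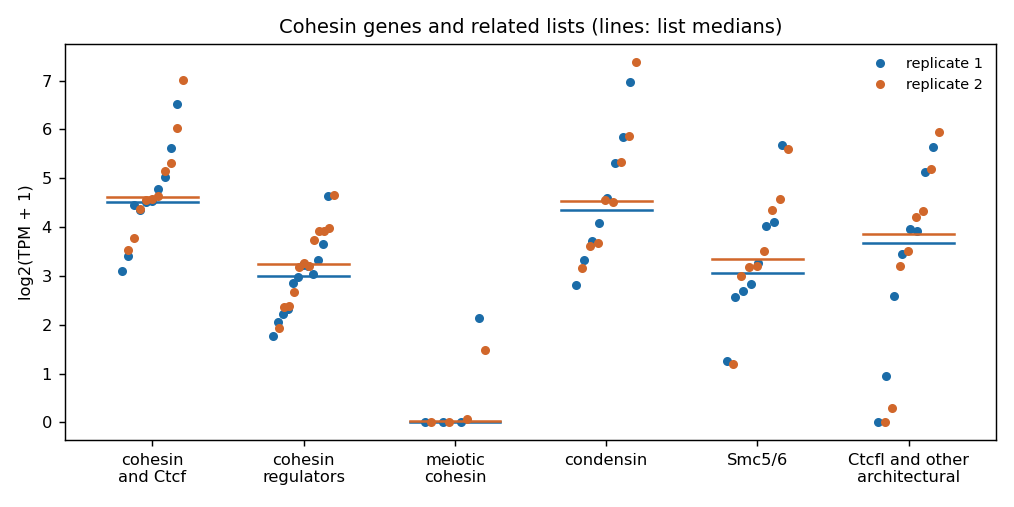
log2(TPM + 1) of each gene in replicate 1 (blue) and replicate 2 (orange), by list, with a line at each list's median. The cohesin and Ctcf medians, 4.52 and 4.61, lie near those of condensin, 4.34 and 4.53, and above those of the regulators, 3.0 and 3.2.

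Log2 ratios of replicate 2 to replicate 1, on counts scaled by edgeR's trimmed mean of M values, ran from -0.19 for Rad21 to 0.25 for Stag2. None was past 2-fold, beside 9.48% of 12855 genes kept by a filter on low counts and 6.78% of the protein-coding genes among them. None was past 1.5-fold, beside 21.0% and 16.7%. For 10 genes these counts lie near the background and are no result about the members. Smc3 was close to Stag2 at 0.23, and Ctcf was close to Rad21 at -0.17. Of the 10 ratios 7 were above 0, beside 49.6% of the kept genes, and their median was 0.09. This compares 1 library with 1 and has no replicate check.

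The ratio moved with the GC content of the transcript holding most counts. The median over kept protein-coding genes was 0.16 in the lowest quintile by GC content and -0.17 in the highest, and 7 of the 10 genes lay in the lowest quintile and 3 in the next. With that trend removed, the median over the 10 turned to -0.07, and the ratios ran from -0.29 for Rad21 to 0.10 for Smc1a. The median over the 10 thus changed sign when the trend was removed.

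**Figure D5:**
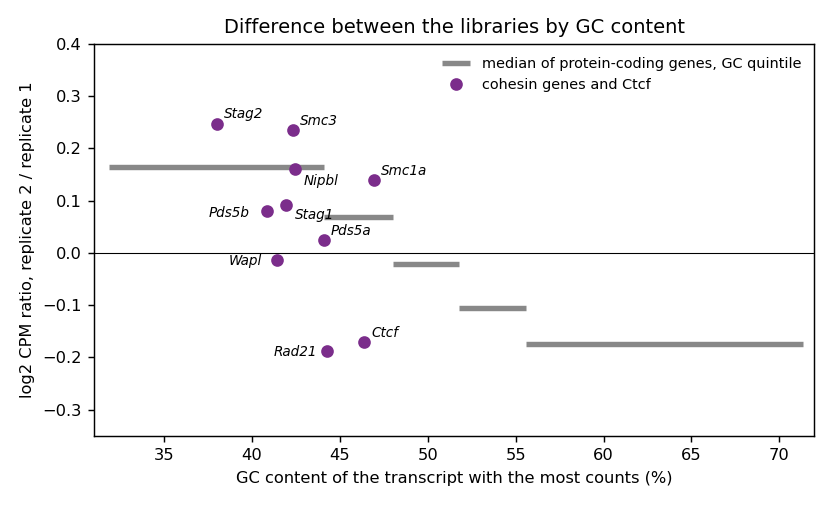
Log2 CPM ratio, replicate 2 over replicate 1, against GC content (%) of the transcript with the most counts for the 10 genes (points), with medians of kept protein-coding genes per GC quintile (grey lines). The medians fall from 0.16 to -0.17, and the 10 genes lie between 38.0% and 46.9% GC with ratios of -0.19 to 0.25.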

How the data were processed

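Total RNA of 2 libraries was analysed. Per the labels, each was made from 100 ng of ribosome-depleted RNA with a ScriptSeq kit, and the size range reached 712 in replicate 1 and 1000 in replicate 2. The deposited tables hold expected counts, TPM, FPKM, posterior means, percent of gene per transcript, and bounds of a credibility interval, read as scores of unstated level. The deposited metadata name mm10 and GENCODE M4, and no source used here names the aligner or the counting program. Mean fragment length, from length minus effective length, was 178 and 214 nt, which affects short transcripts most.

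Names and structures came from GENCODE M21 by identifier; 52 of 56 transcripts of the 10 genes had the deposited length, those of Rad21-201, Nipbl-201, Wapl-202 and Wapl-207 differing. Levels are means ± SD of 2 libraries, and log values use a pseudocount of 1. Expected counts were rounded for edgeR 4.0.16 (prior count 2, filterByExpr), and DESeq2 1.42.0 size factors were an alternative. Trends were lowess fits with a span of 0.3 (statsmodels 0.14.6). The ratio step was tested on simulated data. Members, lists and tests were chosen with earlier results of these data known. Transcripts named are the leading one of each gene and those with a mean share of at least 10%; Stag1-201, Stag2-203, the short and long classes and the exon comparison were chosen after their values were seen.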

Additional observations from a re-analysis of the deposited data

How the results depend on the processing

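No paired analysis was possible because the series has 1 group. Of 142 alternatives to the summary results, 110 were labelled unchanged, 30 moved and 2 changed sign. Unchanged meant within the SD of the 2 libraries for levels, ratios between genes and differences of medians. For the number of genes at or above 1 TPM, which has no SD, it meant within a factor of 1.5. For the ratio between the libraries it meant within the SD over the 10 genes. Alternatives on transcript length and on the transcript with the most counts were chosen after seeing the data. Leaving out each library in turn changed no direction. With 2 libraries, the value of either always lies within their SD of the mean, so that label was fixed in advance for those alternatives. It was also fixed for ratios between genes on FPKM, which is proportional to TPM within a library. Leaving out genes below 0.1 TPM changed nothing where no gene was that low. The count at 1 TPM could not fall on FPKM or rescaled TPM, which exceeded TPM for all 10 genes. The tally of 110 is therefore no measure of stability. Medians over the 10 on FPKM or rescaled TPM moved with the change of unit. The cause of a move was not tested unless the setting itself gives it.

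All values in this paragraph are on a log2 scale, with a pseudocount of 1 unless another is named. The median over the 10 genes, 4.56 on TPM, was 5.96 on FPKM, 6.78 on rescaled TPM and 4.76 as a mean on TPM. The difference from the meiotic list was 7.68 with a pseudocount of 0.1, 5.92 on FPKM, 4.46 on posterior means, 6.70 on rescaled TPM, 4.30 as means and 2.75 without genes below 0.1 TPM. That from the regulators was 1.66 as means, and that of the ring from the regulators, 1.85, was 1.96 with a pseudocount of 0.1, 1.95 on rescaled TPM and 2.21 as means.

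For log2 ratios, protein_coding transcripts alone gave 2.75 for Stag2 over Stag1 (2.37 as reported), -0.82 for Smc3 over Smc1a and -0.70 for Ctcf over Rad21 (-0.14 as reported). Transcripts of at least 2000 nt gave 1.56, -0.82 and -0.70, and 1.28 for both Stag genes over Rad21 (2.53 over all transcripts). Those of at least 1000 nt gave 1.37 for Stag2 over Stag1, -0.50 for Ctcf over Rad21 and 1.36 for both Stag genes over Rad21. Counts over the length of the leading transcript gave 5.93 for Stag2 over Stag1 and 5.29 for both Stag genes, where that transcript is the 294-nt one, -0.85 for Smc3 over Smc1a, -0.54 for Ctcf over Rad21 and -0.82 for Nipbl over Wapl. Nipbl over Mau2 was 1.29 with a pseudocount of 1. The median ratio between the libraries was 0.32 on log2(TPM + 1), -0.073 with a trend on GC content of the leading transcript removed, and -0.070 with one on that of the transcript with the most counts.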

Other observations

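Genes of the related lists also had TPM outside transcripts of at least 2000 nt, and these values were singled out after they were seen. The condensin arm gene Smc4 was at 145 TPM ± 29.7 (SD, n = 2) over all transcripts and at 87.7 TPM ± 27.9 over those of at least 2000 nt. Ncapd2, another condensin subunit gene, was at 56.8 TPM ± 0.346 and 19.8 TPM ± 0.771. Brd2, which encodes a bromodomain protein, was at 54.7 TPM ± 8.24 and 21.0 TPM ± 1.56. Of 18 annotated genes whose span overlaps one of the 10, 12 were in the deposited tables and 3 had over 100 counts in both libraries. Besides Gm5914 at Ctcf, these were Gm37204 and Gm3081, unclassified transcripts within Stag1 on the same strand, with 206 and 187 counts in replicate 1 and 128 and 102 in replicate 2.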
